A study of Mus musculus with 4 samples.

Results

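Motile cilia genes were examined in open chromatin maps of wild-type (wt) mouse lung at E15.5. The set held 38 genes of 21887 protein-coding genes, chosen by name for their known part in multiciliation or in the moving axoneme. It was made up of 8 regulators and 30 structural and assembly genes. The assay was ATAC-seq, where a transposase, Tn5, tags DNA that is free of nucleosomes. The samples formed 1 group of 4 libraries, replicates 1 to 4, with the same genotype and no treatment. The labels gave whole lung as the tissue and described lungs that were frozen before nuclei were taken. Separate embryos or litters were not named for the replicates, so p-values cover only how far these libraries differ, and that can be technical. No conditions could be contrasted, and the question was which of these genes had open chromatin at this stage and whether regulators differed from structural genes.

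Multiciliated cells line the conducting airways and carry many motile cilia that sweep mucus out of the lung. Their fate is set by GMNC and MCIDAS, geminin relatives that act with E2F factors to switch on Myb, Trp73, Ccno and Foxj1. FOXJ1 and the RFX factors then drive the genes of the axoneme, the microtubule shaft whose outer and inner dynein arms, radial spokes, nexin links and central pair produce the beat. RFX factors bind the X-box, a palindrome with a GTTGCC arm, in the promoters of many ciliary genes. In whole lung, fewer cells of a type and less accessible chromatin per cell cannot be told apart.

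The 4 lists held 134503 to 211678 peaks on the assembled chromosomes. Replicate 1 had the shortest list and the highest median fold enrichment, 8.99 against 3.73 to 3.90 in the other libraries. Its peak names held "Frais", French for fresh, where those of replicates 2 to 4 held "Frozen". Whether this bears on the values below was not tested. Strength was therefore read within a library, as the percentile of a peak's deposited fold among all peaks of its own list, with 0 for no peak. All 14 genes used as markers of lung epithelium, mesenchyme and endothelium, among them Nkx2-1, Foxa2, Tbx4 and Foxf1, had a gene-end peak in all 4 libraries. The share over all protein-coding genes was 66.7%. Mean percentiles of the 14 ran from 30.1 at Pecam1 to 96.7 at Foxf1.

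The promoter windows that bear on the results are printed here, because the open starts of Gmnc and Rfx3 lay away from the annotated gene ends and because a short motif, described further on, stood in some windows of the set. Each runs from 250 bases before a RefSeq transcription start to 50 bases from it on, 5′ to 3′ on the gene's own strand (GRCm38.p6, the assembly that mm10 represents). Capitals mark GTTGCC or its reverse complement GGCAAC.
Gmnc, chr16:26968196-26968495, minus strand: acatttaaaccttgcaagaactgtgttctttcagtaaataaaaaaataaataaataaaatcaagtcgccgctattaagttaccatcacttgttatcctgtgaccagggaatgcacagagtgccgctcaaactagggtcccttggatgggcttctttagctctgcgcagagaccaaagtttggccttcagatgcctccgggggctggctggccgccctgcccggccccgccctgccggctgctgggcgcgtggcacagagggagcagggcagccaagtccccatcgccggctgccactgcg
Mcidas, chr13:112993618-112993917, plus strand: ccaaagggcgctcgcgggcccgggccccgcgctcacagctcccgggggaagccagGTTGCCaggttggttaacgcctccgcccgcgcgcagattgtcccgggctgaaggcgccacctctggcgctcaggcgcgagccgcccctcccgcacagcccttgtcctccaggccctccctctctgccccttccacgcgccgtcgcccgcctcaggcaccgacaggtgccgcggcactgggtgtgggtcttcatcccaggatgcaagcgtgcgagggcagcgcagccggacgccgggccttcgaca
Ccno, chr13:112987552-112987851, plus strand: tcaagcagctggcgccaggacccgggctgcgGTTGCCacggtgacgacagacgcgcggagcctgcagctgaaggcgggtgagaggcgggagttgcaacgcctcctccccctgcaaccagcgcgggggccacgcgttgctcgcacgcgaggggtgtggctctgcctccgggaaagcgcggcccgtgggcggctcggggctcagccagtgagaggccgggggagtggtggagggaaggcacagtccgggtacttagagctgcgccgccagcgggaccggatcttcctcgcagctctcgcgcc
Rfx3, chr19:28011117-28011416, minus strand: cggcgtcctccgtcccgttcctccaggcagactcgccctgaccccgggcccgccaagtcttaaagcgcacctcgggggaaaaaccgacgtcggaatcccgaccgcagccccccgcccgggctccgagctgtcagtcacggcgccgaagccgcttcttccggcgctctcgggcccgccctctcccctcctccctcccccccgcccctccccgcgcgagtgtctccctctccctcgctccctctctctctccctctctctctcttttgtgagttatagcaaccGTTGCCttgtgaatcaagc
Tekt1, chr11:72361833-72362132, minus strand: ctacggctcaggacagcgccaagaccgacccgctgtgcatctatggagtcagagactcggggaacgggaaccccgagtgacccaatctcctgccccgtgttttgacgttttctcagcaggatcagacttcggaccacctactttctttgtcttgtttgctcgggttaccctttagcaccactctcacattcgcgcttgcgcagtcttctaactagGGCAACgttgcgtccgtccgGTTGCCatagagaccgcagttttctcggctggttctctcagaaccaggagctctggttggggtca
Dnah10, chr5:124724835-124725134, plus strand: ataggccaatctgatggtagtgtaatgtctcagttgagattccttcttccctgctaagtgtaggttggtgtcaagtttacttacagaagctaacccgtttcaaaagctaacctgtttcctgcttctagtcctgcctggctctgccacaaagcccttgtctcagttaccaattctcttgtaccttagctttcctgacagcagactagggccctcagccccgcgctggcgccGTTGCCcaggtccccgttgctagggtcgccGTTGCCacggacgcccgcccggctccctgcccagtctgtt
Cfap44, chr16:44394549-44394848, plus strand: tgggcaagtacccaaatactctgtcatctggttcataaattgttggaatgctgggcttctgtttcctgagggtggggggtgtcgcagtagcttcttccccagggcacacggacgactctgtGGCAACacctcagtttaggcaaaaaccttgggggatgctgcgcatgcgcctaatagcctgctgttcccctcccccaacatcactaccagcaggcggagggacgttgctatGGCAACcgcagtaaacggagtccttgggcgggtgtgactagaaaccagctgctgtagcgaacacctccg
Dnah12, chr14:26691304-26691603, plus strand: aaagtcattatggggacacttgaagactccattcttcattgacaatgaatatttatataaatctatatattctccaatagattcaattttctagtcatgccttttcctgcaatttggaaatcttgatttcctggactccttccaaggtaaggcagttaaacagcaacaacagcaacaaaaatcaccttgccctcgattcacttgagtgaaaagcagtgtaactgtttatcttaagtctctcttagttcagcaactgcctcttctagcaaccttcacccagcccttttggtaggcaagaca
The first 4 belong to regulators and had a peak of every library at the start, as had the windows of Tekt1, Dnah10 and Cfap44. The window of Dnah12 had a peak in no library and held no match to the motif.

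A gene counted as open at its ends where each of the 4 libraries had a peak touching a window of 1 kb on either side of either annotated gene end. By this call 30 of the 38 motile cilia genes were open, or 78.9%, and 66.7% of all protein-coding genes were. The median gene-end percentile of the set, averaged over libraries, was 83.5, and that of all protein-coding genes was 87.7. The share with a peak was thus above the background and the median rank below it, and neither difference was tested. Gene-end peaks were missing from every library at 3 members, Gmnc, Dnah12 and Spag1, and at 22.3% of all protein-coding genes. The count was 25 when the peak's summit had to lie in the window, where the share of all genes was 60.5%. Of the 30 structural and assembly genes 24 were open, and of the 8 regulators 6. Another gene's annotated end lay within 1 kb of an end of 16 members. For 9 members another gene's end lay in the strongest peak or within 1 kb of it in every library, so that peak need not be the member's own.

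RefSeq gave at least 1 transcription start, with its strand, for 31 of the 38 members. The same call was made for peaks within 1 kb of a listed start. All 7 regulators with a listed start were open there, as were 20 of the 24 structural genes, 27 of 31 in all (87.1%). The share over all protein-coding genes with a listed start was 66.6%. No start peak was found in any library at Dnah5 and Dnah12, as at 24.5% of all such genes. No test of the list was run. The 7 members with no start in the table were Foxj1, Dnaaf1, Spag1, Rsph1, Rsph4a, Cfap54 and Tppp3.

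**Figure D1:**
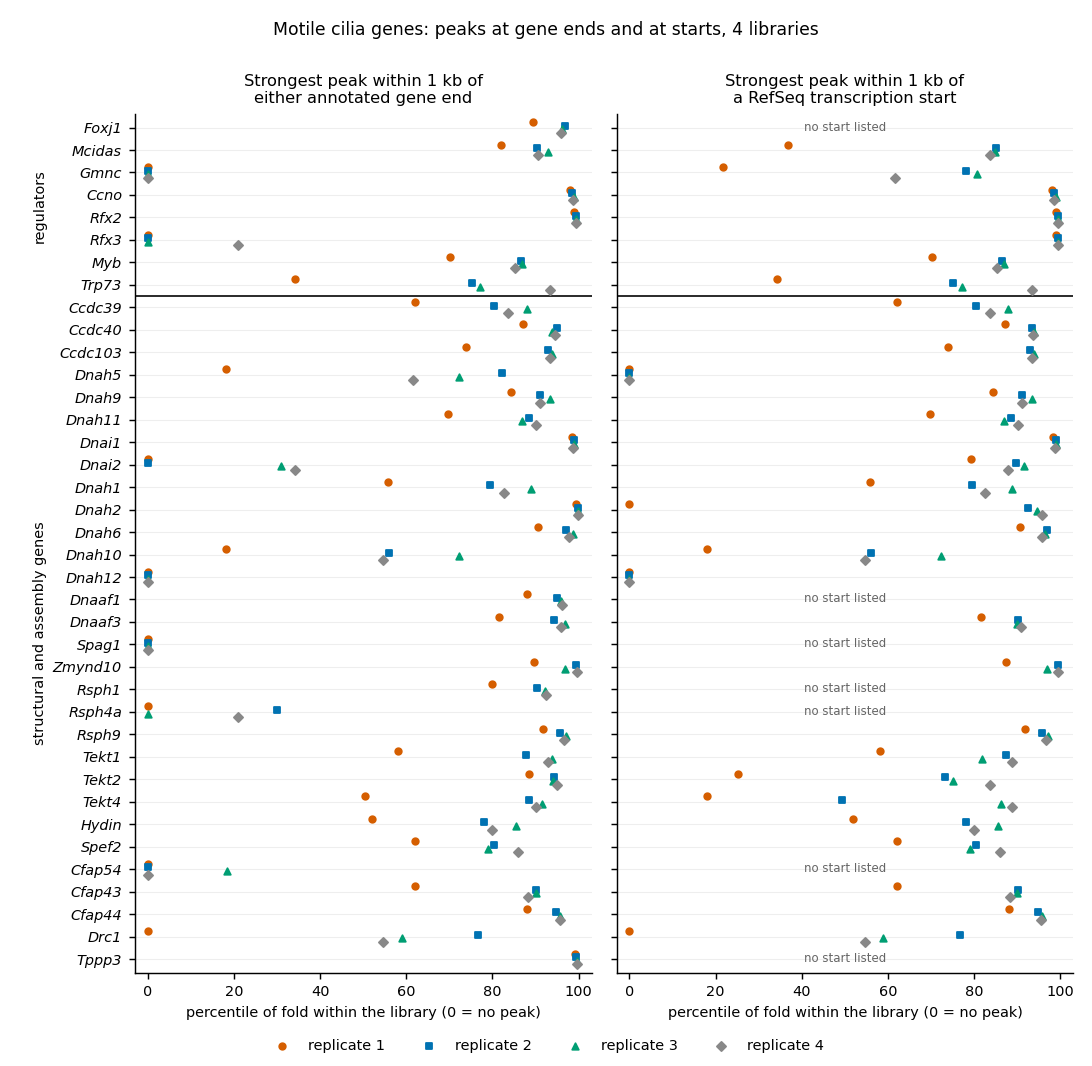
Percentile of fold of the strongest peak at the annotated gene ends (left) and at the RefSeq starts (right) for each of the 38 motile cilia genes, with regulators above the line and structural genes below it and 1 symbol per library. Gmnc sits at 0 on the left, as does Rfx3 except in replicate 4 at 21.1, and both sit above 0 in every library on the right. Replicate 1 is the lowest library at each of the 30 genes open at their ends, a count that was not made over all protein-coding genes.

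Among the master regulators, Gmnc, the geminin relative at the head of the cascade, lacked a gene-end peak in all 4 libraries. The annotated gene runs from 26957235 to 26991675 on chromosome 16 and RefSeq lists 2 starts. The start at 26968245, inside the annotated gene, had peaks at percentiles 21.8, 78.1, 80.5 and 61.5 in replicates 1 to 4. The deposited fold values were 5.14, 6.35, 6.13 and 4.36, where the medians of the lists were 8.99, 3.86, 3.90 and 3.73. The peak thus lay below the median of its list in replicate 1 and above it in replicates 2 to 4. It covered the start base itself in all libraries. The other start, at 26991652 and within 1 kb of the gene end, had none. Of all protein-coding genes with a listed start, 1.03% had a start peak in every library and no gene-end peak in any. Around Gmnc there were only 5 or 6 peaks per library within 100 kb of the gene, and no other protein-coding gene lay in that stretch.

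Mcidas, which encodes multicilin, was open at its start with percentiles of 36.8, 85.0, 84.7 and 83.6. A stronger peak stood at its 3′ end, at 82.0, 90.4, 92.9 and 90.5. Ccno, which encodes a cyclin-like protein needed for centriole amplification, lies 2.80 kb away on chromosome 13. Its start ranked higher, at 98.0, 98.5, 98.9 and 98.6, and every library of Ccno lay above every library of the Mcidas start. The neighbouring Cdc20b hosts the Mir449 genes, which are known to promote multiciliation. A window of 1 kb around Mir449c held a peak in all 4 libraries, at 85.9, 92.1, 92.7 and 91.1. The Cdc20b start had the same values in every library, so this peak need not be the miRNA gene's own. Around Mir449a replicates 1 and 2 had no peak, and replicates 3 and 4 had one at 18.4 and 34.3.

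**Figure D2:**
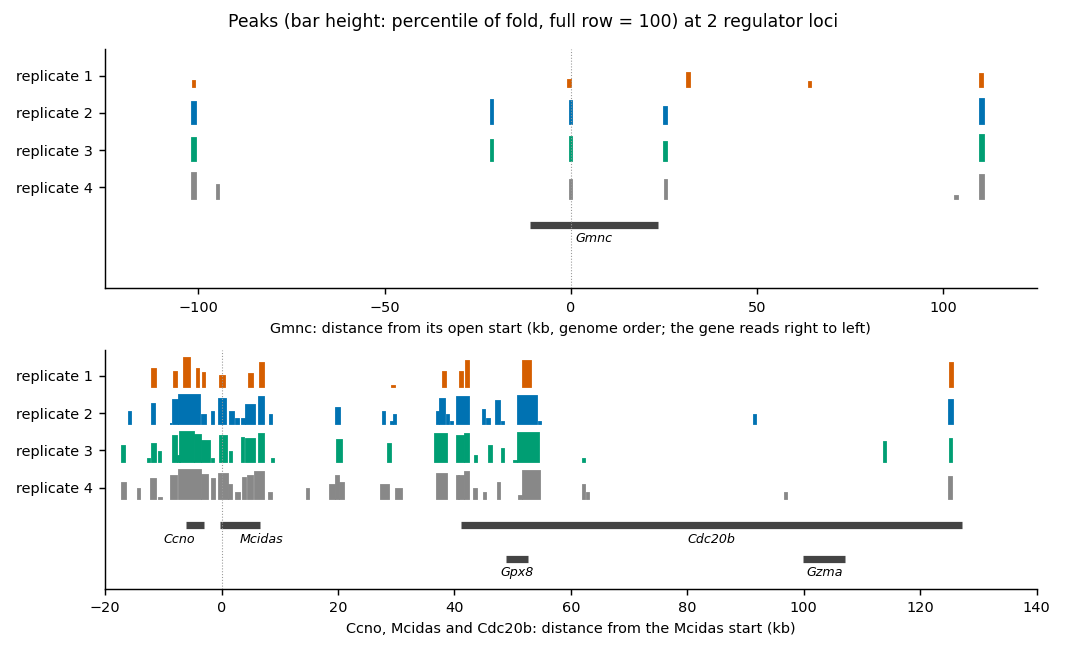
Peaks of each library around Gmnc and around Ccno, Mcidas and Cdc20b, placed by distance in kb from the open Gmnc start and from the Mcidas start, with bar height giving the percentile of fold and gene spans below. The Gmnc stretch holds 5 or 6 peaks per library, while the Ccno and Mcidas stretch holds 14 in replicate 1 and 29 to 34 in the other libraries.

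Foxj1, the forkhead factor that drives motile ciliogenesis, lies on chromosome 11 from 116330704 to 116335499. Its gene-end percentiles were 89.5, 96.9, 96.2 and 96.0, with fold values of 47.9, 32.0, 22.0 and 23.0. Both annotated ends had a peak in every library. An end of Rnf157 lies within 1 kb and its windows held the same peak, so the peak need not be at the Foxj1 promoter. Foxj1 had 12 shared distal regions within 100 kb, of which the strongest lay 17.7 kb from the gene, at chr11:116311068-116313045, with a percentile of 93.8 ± 0.845 (SD, n = 4).

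The RFX factors had the highest start peaks of the regulators, together with Ccno. Rfx2 ranked at 98.9, 99.4, 99.5 and 99.5 in replicates 1 to 4. Rfx3, which acts in motile and primary cilia, ranked at 99.0, 99.5, 99.5 and 99.5 at its start at 28011166 on chromosome 19. That start lies 3503 bp inside the annotated gene, so at the gene ends Rfx3 had a peak in replicate 4 alone, at 21.1. Gmnc and Rfx3 were the 2 regulators not open at their ends, and both were open at a start. Myb, a factor of cycling progenitors and of early multiciliated cells, ranked at 70.2, 86.5, 86.8 and 85.3. In replicate 2 the Myb summit stood 1885 bp after the start. Trp73, which encodes a p53 relative that acts upstream of Foxj1, varied most among the regulators open at their ends, at 34.2, 75.1, 77.2 and 93.5. In replicate 4 the summit stood at -2643 bp from the start, before it. Its listed start inside the gene, at 154097173 on chromosome 4, had no peak in any library.

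Outer arm dyneins power the beat, and their heavy chains are among the longer genes of the set. Dnah9 was open at its start at 84.4, 91.0, 93.3 and 91.1, and Dnah11 at 69.6, 88.5, 86.8 and 90.2. Dnai1, an intermediate chain that RefSeq lists as Dnaic1, ranked at 98.4, 99.0, 98.9 and 98.8. The start of Fam219a lies 256 bp from its own, on the other strand. Dnai2, listed as Dnaic2, had gene-end peaks in replicates 3 and 4 alone, at 30.9 and 34.3. At its start, 6078 bp inside the annotated gene, it was open at 79.3, 89.7, 91.7 and 87.7.

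Dnah5, the outer arm heavy chain of frequent clinical interest, showed the reverse pattern. Its listed start at 28203766 on chromosome 15 had no peak in any library, and the nearest peak was 11112 to 15477 bp away. The 5′ annotated gene end, 48.9 kb before that start, had peaks at 18.1, 82.3, 72.3 and 61.5. The strongest distal region near Dnah5 lay inside the annotated gene, at chr15:28158332-28160669, at 86.0 ± 4.78 (SD, n = 4).

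Inner arm dyneins shape the waveform. Dnah12 was the only member with a listed start and no peak in any library at either its ends or its start. The nearest peak lay 3111 to 3123 bp before the start in the 4 libraries, in a shared region at chr14:26687442-26688443 with a percentile of 70.7 ± 26.2. Dnah2 had the highest gene-end percentile of the members, 99.3, 99.8, 99.8 and 99.9, but this peak stood at the 3′ end, where an end of Kdm6b lies within 1 kb. At the Dnah2 start the percentiles were 0, 92.4, 94.6 and 95.8, so replicate 1 had no peak there. In replicates 2 to 4 the summit stood 2048 to 2313 bp after that start. Dnah10 ranked at 18.1, 56.0, 72.3 and 54.7 at its start, and an end of Atp6v0a2 lay within 1 kb of its peak. At their ends Dnah1 ranked at 55.9, 79.4, 88.8 and 82.6 and Dnah6 at 90.6, 97.0, 98.7 and 97.7. The Dnah1 values were also those of its start, 1995 bp inside the annotated gene, and an end of Bap1 lies within 1 kb of an end of Dnah1. In replicates 3 and 4 the Dnah6 values came from its 3′ end, while its 5′ end stood at 96.4 and 95.8.

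Assembly factors load the dynein arms in the cytoplasm. Zmynd10 ranked at 89.6, 99.5, 96.9 and 99.5 at its ends, but in replicates 2 to 4 the summit lay over 5 kb from the start within a broad peak. An end of Rassf1 lay in the strongest peak or within 1 kb of it in every library. Dnaaf1 and Dnaaf3 were open at their ends, with means of 93.7 and 92.2. An end of Hsdl1 lay within 1 kb of the Dnaaf1 peak in every library. In replicates 2 to 4 the stronger Dnaaf3 peak stood at its 3′ end, at 94.3, 96.8 and 96.0. An end of Tnni3 lies within 1 kb of an end of Dnaaf3, and the Dnaaf3 start averaged 88.1. Spag1 lacked a gene-end peak throughout, and its start was not listed.

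Ruler proteins set the spacing of the axonemal repeat, and all 3 ruler and docking genes were open at their ends. Ccdc40 ranked at 87.2, 95.0, 93.9 and 94.6 and Ccdc39 at 62.0, 80.5, 87.9 and 83.6. In replicates 2 and 4 the Ccdc40 values came from its 3′ end, while its 5′ end stood at 93.5 and 93.6. An end of Tbc1d16 lies within 1 kb of an end of Ccdc40. Ccdc103 averaged 88.5, with an end of Eftud2 within 1 kb of its peak. Among radial spoke head genes, Rsph9 ranked at 91.8, 95.7, 97.2 and 96.7 and Rsph1 averaged 88.7. Rsph4a had gene-end peaks in replicates 2 and 4 alone, at 30 and 21.1.

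Tektins form filaments inside the outer doublets. Tekt2 ranked at 88.5, 94.3, 94.2 and 95.0 at its ends, through its 3′ end, with an end of Adprhl2 within 1 kb of that peak. At its starts Tekt2 ranked at 25.2, 73.3, 75 and 83.6, and in replicate 3 the summit stood at -1119 to -1372 bp from them. Tekt4 ranked at 50.5, 88.5, 91.4 and 90.2 at its ends, also through the 3′ end, and at 18.1, 49.3, 86.2 and 88.7 at its start. The summit stood at -49 and -30 bp from that start in replicates 1 and 2, but at -1312 and -1650 bp in replicates 3 and 4. Tekt1 was open at both of its listed starts.

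Of the central pair genes, Hydin ranked at 52.0, 78.1, 85.5 and 80.0 and Spef2 at 62.0, 80.5, 79.0 and 86.0. Cfap54 had a gene-end peak in replicate 3 alone, at 18.4. Spef2 stood out for its surroundings, with 8 peaks in replicate 1 and 2 in each other library within 100 kb of the gene, and no shared distal region. It was the only member with none. Drc1, a nexin link component, had peaks in replicates 2 to 4 at 76.7, 58.9 and 54.7 and none in replicate 1. Tppp3, a tubulin-binding protein widely used to mark multiciliated cells, ranked at 99.2, 99.4, 99.7 and 99.7. An end of Zdhhc1 lay within 1 kb of its strongest peak in every library. Cfap44 averaged 93.5 and Cfap43 82.6.

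In all, 8 members were not open at their ends. Gmnc, Rfx3 and Dnai2 were open at a start instead, as were 3.45% of all protein-coding genes with a listed start. Dnah12 and Drc1 were open at neither. Spag1, Rsph4a and Cfap54 had no listed start and could not be examined there. For Mcidas, Dnah2, Tekt2 and Tekt4 the 3′ peak was the stronger in each library.

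The 30 open starts belonged to 27 genes, and by the call each had a peak touching its window of 1 kb. The median distance from a start to the summit of its strongest peak was 87.8 bp, taken as the median over libraries for each start, and 24 of 30 lay within 200 bp. Summits lay before the start at 16 and at or after it at 14, and the start base itself was covered in every library at 28 of the 36 listed starts. The starts of Tekt1 shared their strongest peaks, as did those of Tekt2. These positions were not counted over all protein-coding starts, so whether they are particular to the set was not tested.

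**Figure D3:**
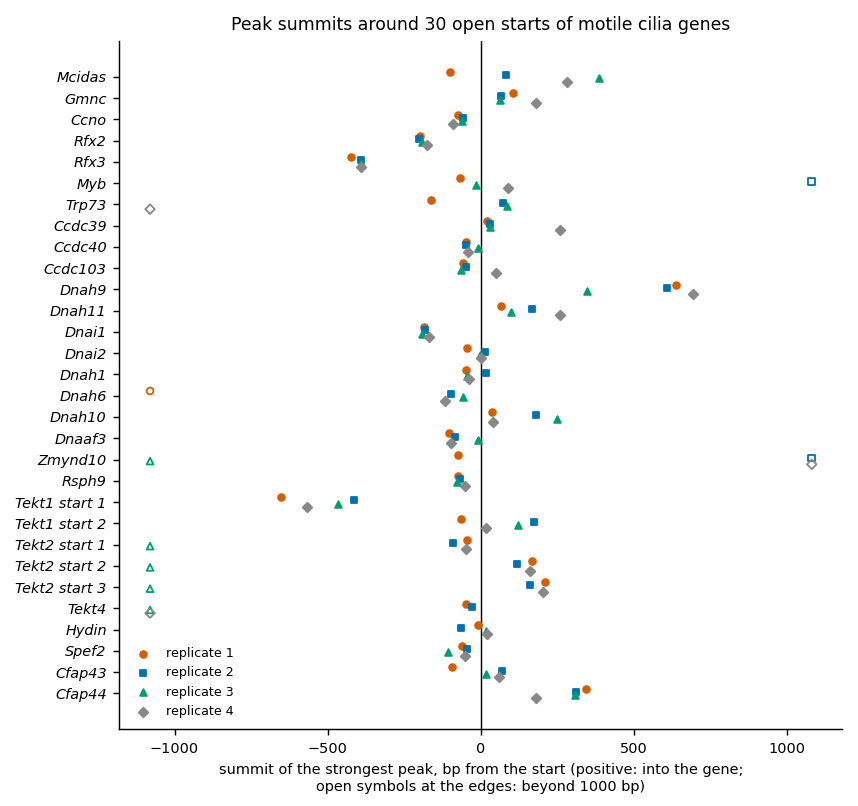
Distance in bp from each of the 30 open starts to the summit of the strongest peak touching its window, 1 symbol per library, with negative values before the start. Most symbols crowd around 0, with 24 of 30 median distances within 200 bp, and open symbols at the edges mark summits beyond the plotted range.

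Regulators and structural genes were then compared within each library, with the library as the replicate. Gene-end peaks were present at 75%, 75%, 75% and 87.5% of regulators and at 80%, 86.7%, 90% and 90% of structural genes, in replicates 1 to 4. The background over all protein-coding genes was 69.2%, 73.2%, 73.9% and 73.8%. The difference, regulators minus structural genes, was -8.54 ± 5.79 percentage points (SD, n = 4) and was negative in 4 of 4 libraries. An exact two-sided sign-flip permutation test gave p = 0.13 (rounded), the smallest that 4 libraries allow, and an adjusted p of 0.188 over 3 such differences. With windows of 2.5 kb the difference was 3.54 points, and at RefSeq starts 10.4 ± 4.17 points (exact sign-flip permutation p = 0.13). At starts 100% of regulators and 83.3% to 91.7% of structural genes had a peak, where the background was 68.5%, 71.7%, 72.3% and 72.3%. It was -4.17 points with the summit required in the window and -5.21 without peaks wider than 10 kb. The direction thus turned with the window used.

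Median rank was higher in regulators in 2 libraries and lower in 2. The median gene-end percentile was 76.1, 88.5, 89.8 and 92.0 in regulators and 65.8, 89.3, 91.8 and 90.6 in structural genes. The difference was 2.21 ± 5.55 percentile points (SD, n = 4), higher in 2 of 4 libraries (exact sign-flip permutation p = 0.75, adjusted p = 0.75). Without replicate 1 it was -0.475 points. It was 7.86 points with windows of 2.5 kb and 5.12 with the summit required in the window, of 1 sign in all 4 libraries both times (exact sign-flip permutation p = 0.13 each).

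Peaks in the surroundings were counted over the gene body and 100 kb on either side and given per 100 kb searched. Regulators had a median of 7.32, 16.1, 15.1 and 18.1 peaks per 100 kb in replicates 1 to 4, and structural genes had 10.1, 20.9, 23.2 and 20.4. In every library the regulator median fell between the neighbours Mcidas and Ccno, which had the same 15, 33, 31 and 37 peaks in reach. It was thus set by the locus these genes share. Over all protein-coding genes the medians were 6.95, 10.8, 12.8 and 11.6. The difference was -4.51 ± 2.62 peaks per 100 kb (SD, n = 4), lower in regulators in 4 of 4 libraries (exact sign-flip permutation p = 0.13, adjusted p = 0.188). With Mcidas and Ccno counted once, an alternative added after the data were seen, it was -4.64 ± 2.63 (SD, n = 4). With a reach of 50 kb it was 3.52 peaks per 100 kb, so the direction turned with the reach. With peaks of q up to 1e-05 alone it was -2.22. Other protein-coding genes had a median density of 2.68 per 100 kb around regulators, against 1.90 around structural genes and 1.89 around all genes. The regulator value again fell between Ccno at 2.46 and Mcidas at 2.90.

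**Figure D4:**
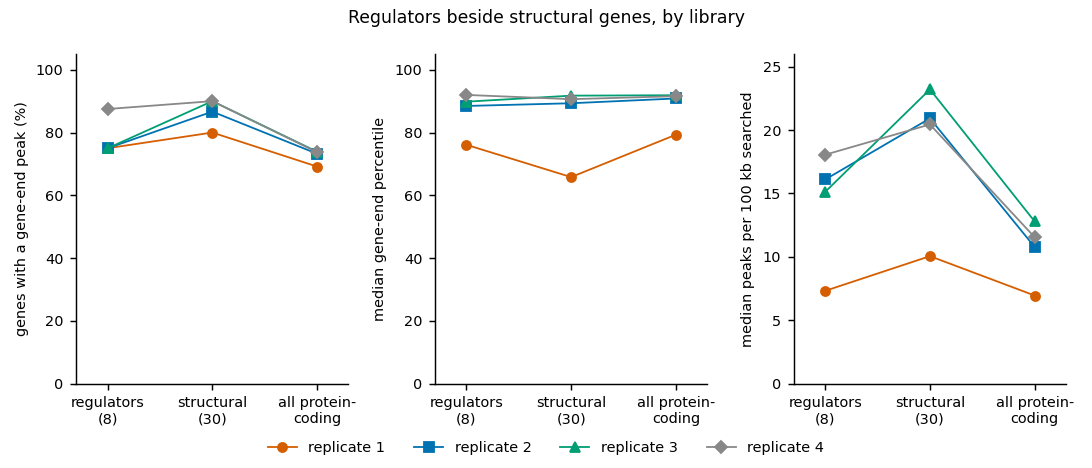
Share of genes with a gene-end peak, median gene-end percentile and median peaks per 100 kb searched, for the 8 regulators, the 30 structural genes and all protein-coding genes, with 1 line per library. Regulators lie below structural genes in 4 of 4 libraries for share and for peak density, and on both sides of them for percentile.

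Distal regions were merged regions that held a peak of every library and were over 2 kb away from every annotated end of a protein-coding gene. Within 100 kb of the members there were 345 of the 48746 such regions, 73 of them inside a member. The median density was 1.28 per 100 kb for regulators and 3.85 for structural genes, and 1.95 over all protein-coding genes. This is 1 value for each class and was not tested. The difference was -2.57, but -4.20 without replicate 1, -3.97 for regions shared by at least 3 libraries, -1.66 with peaks of q up to 1e-05 alone and -1.39 with a reach of 50 kb. Density ranged widely among regulators. Foxj1, Trp73 and Rfx2 had 12, 13 and 11 distal regions, or 5.86, 4.58 and 4.31 per 100 kb. Gmnc, Rfx3 and Myb had 3 each, and Mcidas and Ccno shared their only one, at chr13:112981770-112982602, which lay 5.20 kb from Ccno at a percentile of 63.8 ± 4.51 (SD, n = 4).

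One of the 3 regions of Gmnc and one of the 3 of Rfx3 were the open starts themselves, since these lie inside the annotated genes. The Rfx3 region, at chr19:28009724-28012617, ranked at 99.4 ± 0.26 (SD, n = 4). Away from listed starts Gmnc and Rfx3 had 2 each, and the class medians were 1.06 for regulators and 3.61 for structural genes. The strongest distal region of Rfx2 lay inside the gene, at chr17:56808121-56816115, at 92.7 ± 2.97. The strongest near Myb, at chr10:21144835-21145592, also lay inside its gene, at 79.6 ± 4.43. Among structural genes Tppp3, Ccdc40 and Dnai2 had the densest surroundings, with 7.85, 7.60 and 7.19 distal regions per 100 kb. The Dnai2 count took in its own open start, and away from listed starts it had 6.34, below Dnah1 at 6.40. The strongest near Ccdc40, at chr11:119205633-119217690, lay inside Tbc1d16 and ranked at 98.4 ± 0.426.

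The letters of the promoter windows were not used to choose the genes. GTTGCC, the arm of the X-box, was searched on both strands together with the full X-box palindrome, the forkhead motif TGTTTAC and the E2F motif TTCCCGC. The RFX motif GTTGCC stood in the window of 16 of the 31 motile cilia genes with a listed start (51.6%), and of 14.3% of all 17492 protein-coding genes with one. Counted by window, 17 of 36 held it (47.2%), against 12.6% of all 21263 windows. By class, 5 of 7 regulators held it, namely Mcidas, Ccno, Rfx2, Rfx3 and Trp73, and 11 of 24 structural genes. In the windows printed above the motif stands once in Mcidas, Ccno and Rfx3 and at 2 places in Tekt1, Dnah10 and Cfap44, and is missing from Gmnc and Dnah12.

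The 31 genes held 20 distinct matches, 15 of them with their first base within 50 bp of a start. Where the windows of several starts held a match, the nearest start was used. Positions were not counted over all protein-coding windows, so whether this placing is particular to the set was not tested. At windows whose start was open in every library 53.3% held the motif, 16 of 30, and 12.7% of all open windows did. Across the 4 bins of CpG count (0 to 4, 5 to 13, 14 to 24 and 25 or more), the share over all windows was 11.4% to 13.7%, and members held the motif in 1 of 3, 5 of 16, 6 of 8 and 5 of 9 windows. No member window held the full palindrome, which 0.428% of all windows did. TGTTTAC was found in 2 member windows, Myb and Cfap43, or 5.56%, against 3.01% of all windows. TTCCCGC was found in 1 member window, at Trp73, or 2.78%, against 5.95%. These are matches of letters in reference sequence, with no test, and do not show that a factor was bound.

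**Figure D5:**
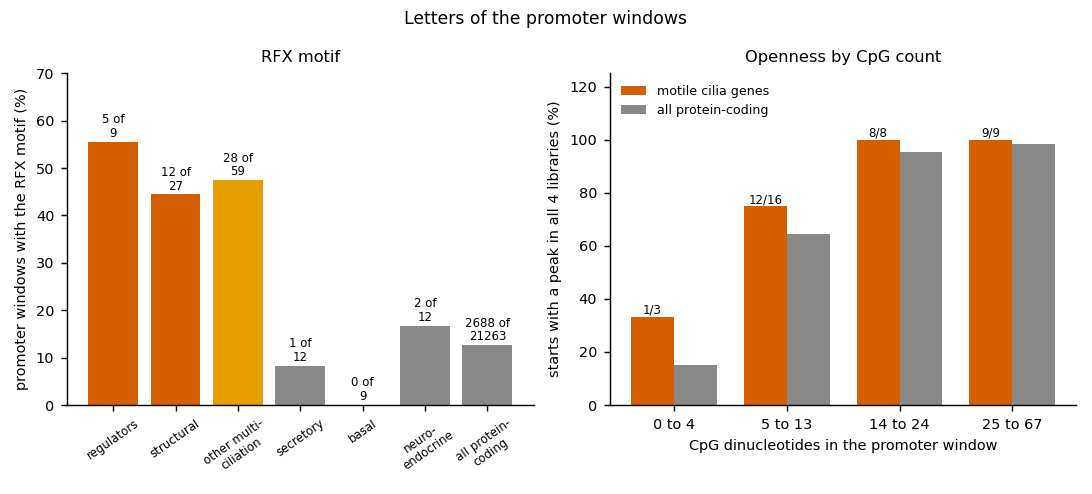
Left, share of promoter windows that hold the RFX motif in regulators, structural genes, other multiciliation genes, 3 other airway cell classes and all protein-coding genes, with counts above the bars. Right, share of starts open in all 4 libraries by number of CpG dinucleotides in the window, for motile cilia genes and all protein-coding genes, where openness climbs with CpG count in both.

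The classes had different median base composition. Regulator windows had a median of 33 CpG dinucleotides and 72% G and C, and structural windows had 12 and 54.7%. All protein-coding windows had 13 and 56.3%. Openness followed CpG count across all genes. Of windows with 0 to 4 CpG, 14.9% were open in every library, and 64.4%, 95.4% and 98.3% with 5 to 13, 14 to 24 and 25 or more. Motile cilia windows in the same bins were open at 1 of 3, 12 of 16, 8 of 8 and 9 of 9. The windows with no peak in any library were low in CpG, with 1 in Dnah12, 6 in Dnah5 and in the inner start of Trp73, and 2 in the closed start of Gmnc. Some open windows were low as well, with 3 in Tekt4, 5 at the Tekt1 start at 72361296 and 7 in Dnah11 and Spef2. The part of CpG content in the difference between regulators and structural genes at starts was not tested.

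Other multiciliation genes were examined with the same calls. Of 69 listed genes 63 were matched by symbol, and 51 of these were open at their ends (81.0%, against 66.7% of all protein-coding genes), with 44 of 53 open at a start (83.0%, against 66.6%). All 9 centriole amplification genes, among them Plk4, Deup1 and Cep152, were open at both, and all 11 matched genes of microtubule inner proteins were open at their ends. Of the other roles, 4 of 4 nexin link genes and 7 of 8 central pair genes were open at their ends. So were 4 of 5 radial spoke genes and 6 of 8 regulators. The lowest shares were 5 of 8 for inner arm dynein genes, 4 of 7 for assembly factors and 1 of 3 for outer arm and docking genes. Dnaaf5, Drc3 and Gas8 ranked highest at gene ends, with mean percentiles of 99.9, 99.9 and 99.6. Pih1d3, which RefSeq lists as Dnaaf6, and Dnah14 lacked a gene-end peak throughout. Among regulators of this list, Rfx1 was open at its start at 99.9 and had a gene-end peak in 3 libraries, and E2f4 and E2f5, the partners of GMNC and MCIDAS, were open at their ends. The RFX motif stood in the window of 26 of 53 genes (49.1%), close to the share in the motile cilia genes, though this list was drawn up for the same pathway.

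Genes of other airway cell types were set beside them with the same call. Secretory cell genes were open at the ends in 8 of 16, basal cell genes in 9 of 14 and neuroendocrine genes in 9 of 15, or 50%, 64.3% and 60%, against 66.7% of all protein-coding genes. At starts the counts were 4 of 11, 6 of 8 and 6 of 11, or 36.4%, 75% and 54.5%, against 66.6%. Their median gene-end percentiles were 45.0, 72.5 and 70.4, below the 83.5 of the motile cilia genes. The RFX motif stood in the window of 1 of 11 secretory, 0 of 8 basal and 1 of 11 neuroendocrine genes. No test was run between the lists. Genes of other ciliated organs were open at their ends in 2 of 8 for testis and 2 of 4 for brain ventricle and choroid plexus. Further genes used as markers of multiciliated cells, Dynlrb2, Ccdc153 and Sec14l3, averaged 77.1, 45.6 and 46.8 at their ends. Ccdc153 and Sec14l3 had no peak in replicate 1.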

How the data were processed

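The authors deposited 1 list of narrow peaks per library, called per library and not on pooled samples. Per the submitters' processing notes build mm10 was named, with the tools MACS3 3.0.1, Bowtie2 2.5.2 and Trim Galore, besides deepTools, SAMtools 1.18, FastQC 0.12.1 and bedtools 2.31.0, with no role or setting attached. The deposited fold enrichment is a ratio of summit signal to background, which served for ranks within a list. The deposited −log10 q served as an alternative threshold, and the deposited −log10 p and score were not analysed further. Depth is unknown from peak lists, so no interval is given.

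Only peaks of the 19 autosomes and the sex chromosomes were used, leaving out 1245 to 1814 per library. Gene spans, starts and promoter letters came from RefSeq tables of GRCm38.p6, read with Python 3.11.15, numpy 2.4.6 and pandas 2.3.3. The starts table is not complete. All 38 members matched, 2 of them (Dnai1 and Dnai2) by synonym. The counting was tested on simulated peak lists and recovered 200 of 200 genes, all of them long and with no other gene end close by. Genes with a neighbour's end near their own, start windows and the reach of 100 kb were not simulated. Differences between classes were tested by an exact sign-flip permutation over libraries with Benjamini-Hochberg adjustment. The members and lists were chosen with earlier results of these data known. Values per library were given for regulators, for the highest and lowest member of each structural role by mean gene-end percentile and for members with peaks in 0 to 3 libraries. Other members with values per library, the printed windows, and the comparisons at starts were chosen after the values were seen.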

Additional observations from a re-analysis of the deposited data

Results flagged for a closer look

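Within the group of 4 libraries, 1 library lay far from the other 3, by Dixon's test at the 95% level, in 10 of 25 sets of values examined. Chance flags about 1 in 20 independent sets. These sets share genes and some hold tied values, so the count cannot be set against that rate. In 8 of the 10 flagged sets it was replicate 1 that stood apart. The median gene-end percentile over all motile cilia genes was 69.9 in replicate 1, against 89.3 to 91.8 in the others, and that over structural genes was 65.8, against 89.3 to 91.8. Over all protein-coding genes it was also lowest in replicate 1, at 79.3, against 90.9 to 91.9. The median start percentile was 62.0 in replicate 1, both over all members and over structural genes, against 88.5 to 88.8 and 88.7 to 89.4. Over all protein-coding genes it was 81.2, against 91.2 to 92.1. Foxj1 ranked at 89.5 (96.0 to 96.9 in the others), Rfx2 at 98.9 (99.4 to 99.5) and Myb at 70.2 (85.3 to 86.8). At starts the share of regulators minus that of structural genes was 16.7 percentage points in replicate 1 and 8.33 in each other library. Replicate 4 stood apart in the other 2 sets, with a gene-end peak at 87.5% of regulators (75% elsewhere) through Rfx3, at 21.1 in replicate 4 and 0 elsewhere. Over all 38 members, gene-end percentiles met the same criterion at 16, of which 14 had replicate 1 lowest. The same count was not made over all protein-coding genes, so whether it is particular to the set was not tested.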

How the results depend on the processing

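The number of members open at their ends stayed between 25 and 33 under all 13 alternatives, 2 of them added after the data were seen, and the number open at a start between 23 and 29 under all 11. Leaving out 1 library gave 30 to 31 and 27 to 29. The difference in share of genes with a gene-end peak was negative in 9 of 11 alternatives and turned to 3.54 percentage points with windows of 2.5 kb and to 10.4 at RefSeq starts, an alternative chosen after seeing the data. Leaving out 1 library gave -10.6 to -6.39. The difference in median percentile was positive in 10 of 11 alternatives and ran from -0.475, without replicate 1, to 7.86, with windows of 2.5 kb, and up to 3.59 when 1 library was left out. The difference in peaks per 100 kb turned to 3.52 with a reach of 50 kb, while leaving out 1 library gave -5.21 to -3.31. The difference in distal density stayed negative in all 11 alternatives, from -4.20, without replicate 1, to -1.39, with a reach of 50 kb, and at -4.20 to -2.63 when 1 library was left out. The cause of these turns was not tested. No paired analysis between groups of samples was possible because there was 1 group, and the class differences were taken within each library. With 4 libraries no sign-flip test could pass 0.05, and a peak list cannot tell a weak region from one missed at low depth.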
